A study of Mus musculus with 28 samples.

Results

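Oncofetal and imprinted genes of the liver were followed as a set of 8, namely *H19*, *Igf2*, *Igf2r*, *Igf2bp2*, *Afp*, *Gpc3*, *Meg3* and *Cdkn1c*, which make up 8 of the 49585 features in the count table. The set was chosen by the measured difference of *H19*, which had fewer counts in SIRT6-tg than in WT mice of both sexes, so the genotype differences of these genes are given as descriptions, and calls on them are only counted beside those of all genes. All 8 passed the filter on low values (0.5 or more normalized counts on average), as did 21583 features in all. RNA-seq was carried out on whole liver of male and female C57BL/6JOlaHsd mice aged 5 to 7 months, either wild-type (WT) or carrying a *Sirt6* transgene (SIRT6-tg), with 7 mice in each of the 4 groups. The study states that the mice were fasted for 4 h before the livers were taken. According to the methods, every SIRT6-tg mouse descended from a single transgenic line and was compared with WT littermates. The transgene came from the father in some matings and from the mother in others, and the labels do not say which applied to a given mouse. What drives the transgene is not given in the sources used here. The study asked how SIRT6, a deacylase of the sirtuin family, shapes gene expression in the liver.

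Imprinted genes are transcribed mainly from the copy inherited from 1 parent. The long non-coding RNA *H19* is transcribed from the maternal copy and the growth factor gene *Igf2* from the paternal copy, under a control region that both share. Many of these genes are abundant in fetal liver, are shut down within weeks after birth, and can return in regenerating liver or liver cancer, hence the name oncofetal. *Afp* and *Gpc3* are the classical liver examples. The parent of origin of the reads was not measured here.

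The sequences most closely tied to *H19* are those of miR-675, which is cut from its first exon. RefSeq (GRCm38.p6) places the hairpin's mature arms on the minus strand, miR-675-5p at chr7:142577112-142577133 and miR-675-3p at chr7:142577078-142577099. They are shown 5′ to 3′ with the seed, bases 2 to 8, in capitals.
mmu-miR-675-5p: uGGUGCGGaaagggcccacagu
mmu-miR-675-3p: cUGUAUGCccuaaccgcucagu
Neither seed occurs in another of the 1679 mature mouse miRNAs in the table. The *Mir675* feature had a count of 0 in all 28 libraries. Each such 0 allows up to 3 counts, and reads inside the 84 exonic bases that *Mir675* shares with *H19* could be assigned to neither gene, so these counts give no level of the miRNA.

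Counts were scaled by TMM to a common library size and are called normalized counts below. Totals lay between 18758863 and 35393069 counts per library. *Sirt6* itself separated the genotypes without overlap, with a log2 fold change of 6.68 ± 0.30 (SE) in males and 3.39 ± 0.26 in females. Levels of different genes were set side by side only as normalized counts per kb of exon. On that scale the mean over 28 libraries was highest for *Igf2r*, at 123 ± 28.9 (SD). *Cdkn1c* followed with 37.9 ± 16.3, *Afp* with 22.5 ± 8.54, *Meg3* with 11.9 ± 10.9, *Gpc3* with 9.45 ± 6.82, *Igf2bp2* with 8.88 ± 4.69, *H19* with 4.46 ± 9.47 and *Igf2* with 2.84 ± 1.16. Among neighbours in this order, only *Igf2r* and *Cdkn1c*, the first 2, differed by more than their combined SD. From *Cdkn1c* downward, each gene differed from the next by less than the larger of the 2 SDs. The most abundant member thus ranked at percentile 75.5 of the genes tested and the least abundant at percentile 26.7. Features on the opposite strand cover 625 exonic bases of *Cdkn1c* and 1228 of *Meg3*. Reads there could be assigned to neither gene, so the per-kb levels of *Cdkn1c* and *Meg3* may be too low.

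*H19* was at or close to the counting floor in most mice. It lies on the minus strand at chr7:142575529-142578143 (GRCm38) and spans 3 exon blocks. Male WT livers had 3 to 21 *H19* reads with a median of 5. In male SIRT6-tg livers the counts lay between 0 and 3 with a median of 2, so 7 of 7 libraries were at or under the floor of 3 counts. The male groups overlapped at 3 raw reads. In normalized counts they overlapped more widely, with 1.97 to 18.6 in WT and 0 to 4.23 in SIRT6-tg livers. On that scale 4 of 7 SIRT6-tg values lay below every WT value. Female WT livers held 105, 61, 18, 6, 4, 4 and 1 reads. Female SIRT6-tg livers held 1 to 8 with a median of 5, so that 3 female WT libraries stood above every SIRT6-tg library and the other 4 lay within the SIRT6-tg range.

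**Figure D1:**
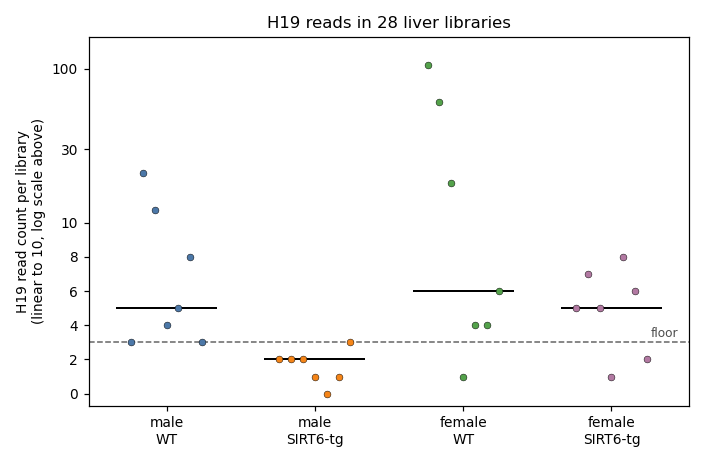
Read counts of H19 in each of the 28 libraries (vertical axis, linear to 10 and logarithmic above), by group, with the median as a bar and the floor of 3 counts as a dashed line. All 7 male SIRT6-tg libraries lie at or under the floor, and 2 female WT libraries, with 105 and 61 reads, lie far above the rest.

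In normalized counts, *H19* averaged 7.38 ± 5.81 (SD, n = 7) in male WT and 1.80 ± 1.32 in male SIRT6-tg livers, a log2 fold change of -2.01 ± 0.94 (SE). Female WT livers averaged 29.6 ± 42.9 and female SIRT6-tg livers 5.18 ± 2.70, a log2 fold change of -2.50 ± 0.71. The mean and the median diverged in females. The log2 ratio of the medians was -1.86 in males but -0.18 in females, where the medians were 6.71 and 5.93. Of all *H19* reads in female WT livers, 83.4% came from 2 mice, replicates 1 and 2. Without both, a step added after the data were examined, the female log2 fold change was -0.32, and leaving out replicate 1 alone gave -1.59.

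Sums of reads show the same split with their counting error. Male SIRT6-tg livers held 11 *H19* reads against 56 in male WT, a depth-corrected ratio of 0.240 (95% interval 0.113 to 0.463). Female SIRT6-tg livers held 34 against 199, a ratio of 0.175 (0.118 to 0.252). Once female WT replicates 1 and 2 were set aside, 33 reads remained in female WT and the ratio became 0.761 (0.458 to 1.27). These intervals cover counting error only, not the spread between mice, and are no test of genotype.

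The female WT mouse with the most *H19* was also at an edge of its group for 6 other members. Replicate 1 had the lowest normalized counts among female WT mice for *Afp* (43.4), *Igf2bp2* (35.8), *Meg3* (84.7) and *Igf2r* (748), and the highest for *Gpc3* (67.3) and *Igf2* (31.5). It also had the most *Sirt6* among female WT mice, 165 normalized counts against 78.2 in the next, still under the lowest female SIRT6-tg value of 434. Replicate 2 had the second lowest value for *Afp* (59.2), *Igf2bp2* (64.3) and *Igf2r* (822). It differed from replicate 1 in *Igf2*, where it had the lowest value (7.14), and its *Meg3* value (144) was the group median. These values were picked out after they were seen.

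*Igf2*, the fetal growth factor that neighbours *H19*, was the least abundant member per kb. Its normalized counts ran from 7.04 to 20.1 (median 15.8) in male WT and from 6.97 to 18.6 (median 11.0) in male SIRT6-tg livers. In females they ran from 7.14 to 31.5 (median 21.1) in WT and from 8.71 to 30.3 (median 17.5) in SIRT6-tg livers. The ranges overlapped almost fully in both sexes. Log2 fold changes between the genotypes were -0.40 ± 0.30 in males and -0.06 ± 0.28 in females. No library was at or under the floor, since the lowest raw count was 7. *Igf2os*, an antisense transcript that shares 98 exonic bases with *Igf2*, had 10 reads over all 28 libraries. *Ins2*, the next gene of the domain, had none in any library.

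*Igf2r* encodes the receptor that takes up IGF2 for degradation and is transcribed from the maternal copy in mouse liver. Its normalized counts averaged 1196 ± 277 in male WT, 1137 ± 274 in male SIRT6-tg, 1118 ± 304 in female WT and 1134 ± 278 in female SIRT6-tg livers. All 4 groups covered much the same range. Genotype differences were -0.07 ± 0.19 on the log2 scale in males and 0.02 ± 0.19 in females.

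*Igf2bp2*, which encodes an RNA-binding protein that takes *Igf2* mRNA among its cargo, ran from 29.3 to 88.4 (median 41.6) in male WT and from 22.1 to 50.4 (median 39.8) in male SIRT6-tg livers. Female WT livers ran from 35.8 to 149.8 (median 99.8) and female SIRT6-tg livers from 56.4 to 106 (median 73.3). Genotype log2 fold changes were nearly equal in the sexes, at -0.42 ± 0.27 and -0.42 ± 0.25, and the ranges overlapped in both.

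*Afp* encodes alpha-fetoprotein, the main plasma protein of the fetus. Male livers had normalized counts of 44.8 to 112 (median 51) in WT and 43.8 to 57.8 (median 48.8) in SIRT6-tg mice, and female livers 43.4 to 121 (median 90.1) and 67.3 to 139 (median 98.7). Its log2 fold change was -0.31 ± 0.21 in males and 0.20 ± 0.20 in females. *Gpc3* encodes a membrane-anchored heparan sulfate proteoglycan and scattered widely inside every group. It ranged from 8.0 to 71.2 in male WT, 2.18 to 46.4 in male SIRT6-tg, 4.44 to 67.3 in female WT and 6.77 to 33.7 in female SIRT6-tg livers, with 1 male SIRT6-tg library (2 reads) under the floor. The log2 fold change was -0.38 ± 0.55 in males and -0.57 ± 0.56 in females, each no larger than about 1 SE. In males the mean and the median moved in opposite directions, since the log2 ratio of the medians was 0.53.

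*Meg3*, a long non-coding RNA of the *Dlk1*-*Dio3* domain that is transcribed from the maternal copy, had the largest genotype difference after *H19*. Male WT livers ranged from 36.8 to 692 normalized counts with a median of 305.9, and male SIRT6-tg livers from 57.7 to 198 with a median of 83.3. In females the range was 84.7 to 729 with a median of 144 in WT and 16.2 to 339 with a median of 99.6 in SIRT6-tg livers. SIRT6-tg mice lay toward the lower end in males, and the ranges overlapped in both sexes. In females 3 of 7 SIRT6-tg values lay below every WT value, but replicates 6 (339) and 7 (281) lay above the WT median. The female log2 ratio of the medians was -0.53, and 64.1% of the female WT reads came from 2 mice. Means were 334.9 ± 241 against 101 ± 54.8 in males, a log2 fold change of -1.71 ± 0.60, and 280.1 ± 236 against 143 ± 120 in females, a log2 fold change of -0.98 ± 0.59. Mice of a group also differed most for *Meg3*, *Gpc3* and *H19*, whose coefficients of variation were 54.1% to 84.3%, 52.9% to 80.5% and 52% to 145%, whereas those of the other 5 members were 10.7% to 43.4%.

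*Cdkn1c*, which encodes the cell cycle inhibitor p57 and is transcribed from the maternal copy, differed little between the genotypes. Means were 56.5 ± 17.5 in male WT and 49.5 ± 12.3 in male SIRT6-tg livers, and 100.4 ± 17.2 in female WT and 103 ± 37.6 in female SIRT6-tg livers. The log2 fold change was -0.19 ± 0.21 in males and 0.03 ± 0.20 in females.

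**Figure D2:**
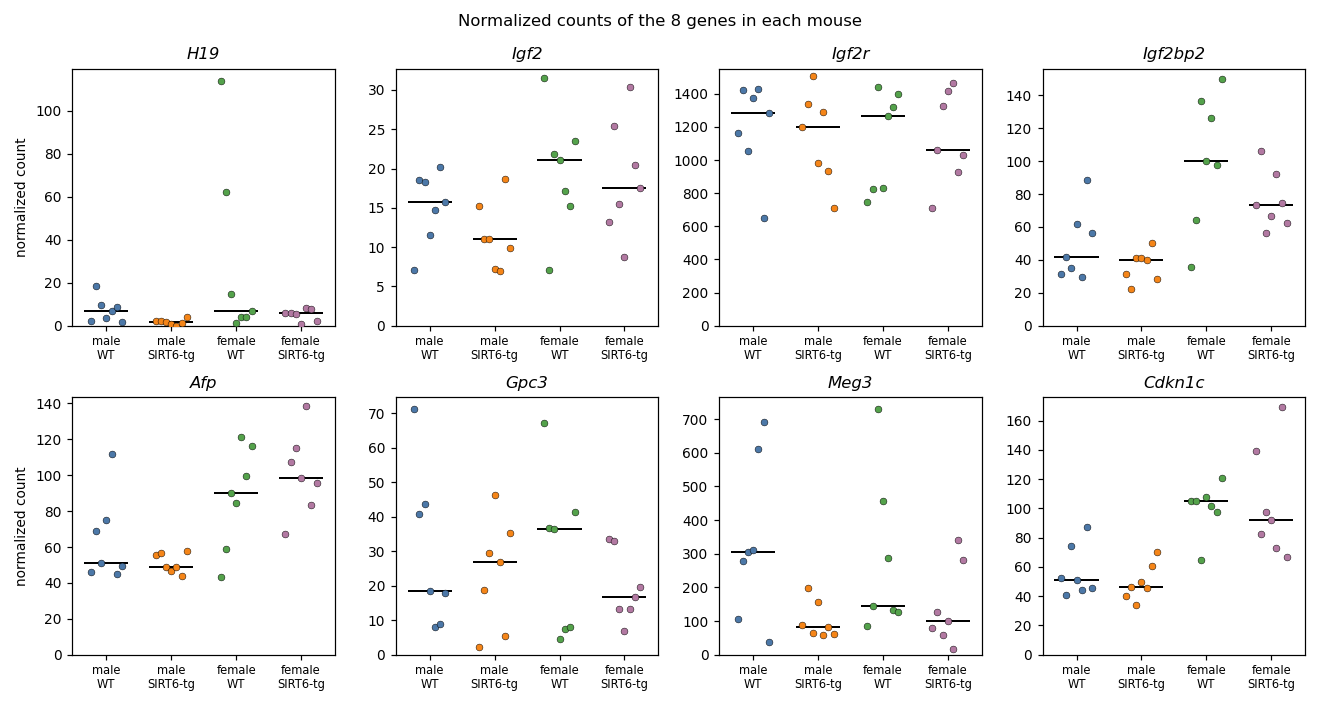
Normalized counts (vertical axes, linear from 0) of the 8 genes in each mouse, by group, with the group median as a bar. Genotype groups of the same sex overlap in every panel, Cdkn1c, Igf2bp2 and Afp sit higher in females, and the H19 panel is dominated by 2 female WT mice.

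Across the set, the log2 fold change was below 0 for 8 of 8 members in males, where 44.7% of all genes tested were below 0, and for 5 of 8 in females, where 49.4% were. The median over the members was -0.39 in males and -0.24 in females, against 0.06 and 0.003 over all genes tested. In males 1 of 8 members, *Meg3*, was past an adjusted p-value of 0.05 (edgeR quasi-likelihood test, Benjamini-Hochberg), where 20.7% of all genes were. That call was lost without a filter, with a replicate block and without any of 10 of the 14 male libraries, and DESeq2 called *H19* as well. In females 0 of 8 were, where 0.0278% of all genes were, with 1 of 8 at an unadjusted p-value under 0.05 (5.62% of all genes) and 0 by DESeq2. The ranges of the genotypes overlapped for 8 of 8 members in both sexes, while 6.98% of all genes in males and 0.0834% in females had ranges that did not overlap. Since these contrasts chose the members, nothing is read from these counts. The difference of the genotype effect between the sexes, male minus female, was 0.49 ± 1.43 for *H19*, -0.73 ± 0.83 for *Meg3* and -0.52 ± 0.29 for *Afp* on the log2 scale, and between -0.34 and 0.19 for the other 5 members.

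**Figure D3:**
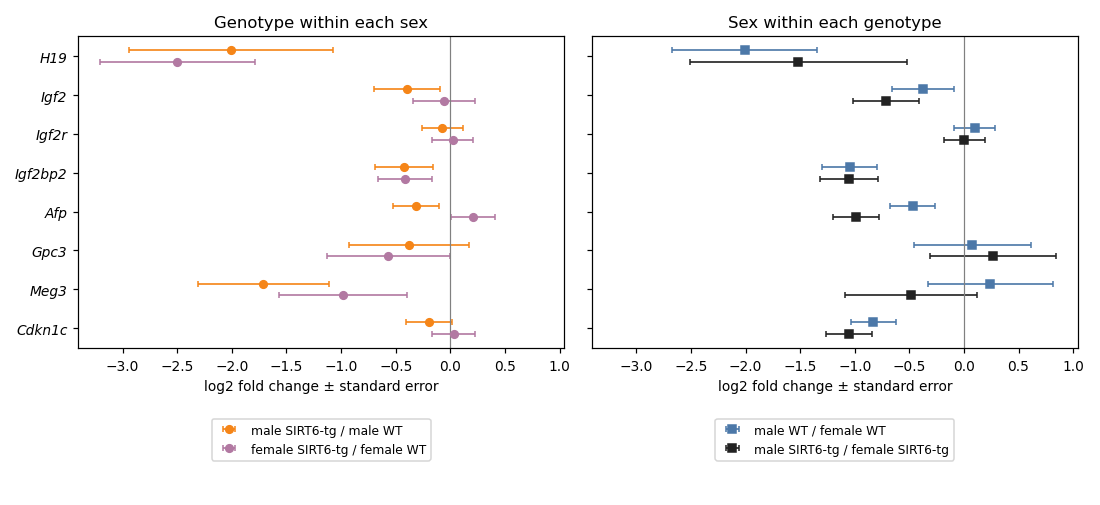
Log2 fold changes (horizontal axis) of the 8 genes with standard errors as bars, between genotypes within each sex on the left and between sexes within each genotype on the right. H19 and Meg3 lie farthest below 0 on the left, and Igf2bp2, Afp and Cdkn1c lie below 0 in both comparisons on the right.

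Genes of other cell types moved with genotype in males, and in bulk liver fewer cells of a type and less RNA per cell cannot be told apart. All 6 of 6 Kupffer cell markers were lower in male SIRT6-tg than in male WT livers, with a summed level of 6759 to 11453 against 7861 to 26150 normalized counts. The same held for 6 of 6 T and NK cell markers (95.9 to 162 against 307 to 1404), 4 of 4 proliferation markers and 3 of 4 B cell markers. Of 6 stellate cell markers 4 were lower (3142 to 3527 against 3616 to 5215), while 1 of 6 endothelial, 0 of 6 cholangiocyte and 0 of 5 mesothelial markers were. Over all genes 11.0% were called lower in this comparison. Between the female genotypes the median log2 fold changes of these marker lists lay between -0.58 and 0.07. Hepatocyte markers had a summed level of 2460620 to 3490090 in male WT and 3093910 to 4276480 in male SIRT6-tg livers, with 1 of 7 called higher and a median log2 fold change of 0.35. Of 3 adipose markers 1 was lower, with a median of -3.37. The summed adipose level was much the same, at 140 to 365 (median 195) against 162 to 582 (median 199). Erythroid markers were higher for 1 of 4, and pancreas markers for 1 of the 3 tested. Whether any of these cell types had a part in the values of *H19*, *Meg3* or the other members was not tested.

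The comparison of the sexes was not itself used to choose the genes and was tested. The *H19* values of all 4 groups did enter the choice, so for *H19* the sex comparisons are not independent of it and are descriptions. In WT livers, 3 of 8 members were lower in males than in females, *H19* among them, so this count is not free of the choice either. Of all genes, 12.4% differed between the sexes and 5.71% were lower in males (edgeR quasi-likelihood test, Benjamini-Hochberg over all genes). *Igf2bp2* was lower by a log2 fold change of -1.05 ± 0.25 (adjusted p = 0.00531), with 3 of 7 male WT values below every female WT value. *Cdkn1c* was lower by -0.83 ± 0.20 (adjusted p = 0.00577), with 5 of 7 male values below every female value. *H19* differed by -2.01 ± 0.66 (adjusted p = 0.0449), but its medians were 6.67 and 6.71. Leaving out female WT replicate 1 ended the *H19* call (-1.08, adjusted p = 0.253), as did replicate 2 (-1.70, adjusted p = 0.104), and without both the value was 0.18. *Afp* stood at -0.47 ± 0.21 (adjusted p = 0.143) and passed only when male WT replicate 5 (-0.65, adjusted p = 0.0234) or female WT replicate 1 (-0.58, adjusted p = 0.0499) was left out.

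In SIRT6-tg livers 3 of 8 members were lower in males, here *Cdkn1c*, *Afp* and *Igf2bp2* and not *H19*. Of all genes, 23.1% differed between the sexes and 10.2% were lower in males. *Sirt6* itself was higher in male than in female SIRT6-tg livers, by 3.22 ± 0.25 (means 7461 and 802 normalized counts), without overlap. Sex and the level of the transgene thus cannot be told apart in this comparison. *Cdkn1c* was lower by -1.05 ± 0.21 (adjusted p = 4.58e-04), with 6 of 7 male values below every female value. *Afp* was lower by -0.99 ± 0.21 (adjusted p = 9.75e-04), and the male range of 43.8 to 57.8 lay wholly below the female range of 67.3 to 139. *Igf2bp2* was lower by -1.06 ± 0.26 (adjusted p = 0.00419), again with no overlap between 22.1 to 50.4 in males and 56.4 to 106 in females. Ranges that did not overlap were found for 2 of 8 members and for 6.13% of all genes. *Igf2* stood at -0.71 ± 0.30 (adjusted p = 0.0832), past the threshold only without male SIRT6-tg replicate 6 (adjusted p = 0.0462) or female SIRT6-tg replicate 4 (adjusted p = 0.0457). *H19* stood at -1.52 ± 0.99 (adjusted p = 0.284). *Igf2r*, *Gpc3* and *Meg3* had adjusted p-values of 0.603 or more in both sex comparisons. The calls of *Cdkn1c* and *Igf2bp2* held in WT and SIRT6-tg mice under every setting tried, and that of *Afp* did in SIRT6-tg mice. Since both comparisons are of different mice, they share no library.

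*Zhx2* and *Zbtb20* encode repressors that shut *Afp* down after birth. *Zhx2* did not pass in either sex comparison, with log2 fold changes of 0.14 ± 0.11 in WT (adjusted p = 0.475) and 0.13 ± 0.11 in SIRT6-tg mice (adjusted p = 0.422). *Zbtb20* was higher in males, by 0.49 ± 0.11 in WT (adjusted p = 0.00231) and by 0.60 ± 0.11 in SIRT6-tg mice (adjusted p = 1.43e-04). Neither passed between the genotypes, where *Zbtb20* stood at 0.10 ± 0.11 in males and -0.01 ± 0.11 in females. Markers of cholangiocytes were lower in male than in female livers for 1 of 6 in WT and 1 of 6 in SIRT6-tg mice, and stellate markers for 0 of 6 and 4 of 6. In WT mice 6 of 6 T and NK cell markers, 4 of 4 proliferation markers and 1 of 6 Kupffer cell markers were higher in males, whereas in SIRT6-tg mice 1 of 6, 2 of 4 and 3 of 6 were lower in males. Their part in the sex differences was not tested.

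The stretches just upstream of *Afp* and *Igf2bp2* are shown because both genes were lower in male than in female SIRT6-tg mice (*Igf2bp2* also in WT mice), together with that of *Meg3* because it had the largest genotype difference among genes above the floor. RefSeq promoters (GRCm38.p6) were found for 6 of the 8 members and for neither *H19* nor *Cdkn1c*. Each line gives the 250 bases before the annotated start, on the strand of the gene, with the letters TATAAA in capitals where present. The *Afp* stretch is chr5:90490464-90490713 on the plus strand, that of *Igf2bp2* chr16:22163300-22163549 on the minus strand, and that of *Meg3* chr12:109540746-109540995 on the plus strand.
Afp: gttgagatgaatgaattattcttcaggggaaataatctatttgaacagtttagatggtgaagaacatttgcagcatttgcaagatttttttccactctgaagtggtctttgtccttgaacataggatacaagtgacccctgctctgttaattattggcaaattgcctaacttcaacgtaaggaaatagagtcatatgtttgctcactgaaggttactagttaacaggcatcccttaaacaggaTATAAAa
Igf2bp2: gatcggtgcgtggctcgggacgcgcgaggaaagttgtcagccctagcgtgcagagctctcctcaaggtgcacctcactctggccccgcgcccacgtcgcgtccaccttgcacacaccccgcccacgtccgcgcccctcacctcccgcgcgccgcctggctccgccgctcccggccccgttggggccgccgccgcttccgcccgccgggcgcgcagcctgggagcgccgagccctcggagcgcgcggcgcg
Meg3: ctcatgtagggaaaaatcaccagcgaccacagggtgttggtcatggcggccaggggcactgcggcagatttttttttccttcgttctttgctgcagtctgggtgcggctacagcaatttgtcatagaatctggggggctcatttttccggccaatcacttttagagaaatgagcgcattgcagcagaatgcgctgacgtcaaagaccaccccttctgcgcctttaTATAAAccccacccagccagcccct
The *Afp* stretch held 1 CpG and a GC content of 36%, whereas that of *Igf2bp2* held 40 CpGs and a GC content of 77.2%, at percentiles 7.87 and 98.7 of the CpG counts of 32817 promoters. *Meg3* lay between them with 10 CpGs and 52.4%, while a second *Meg3* start in the table, not shown, had 0 CpGs. TATAAA, searched on both strands, began 7 bases before the *Afp* start and 25 bases before the *Meg3* start shown, and was absent from the second *Meg3* stretch, the 4 *Igf2* stretches and those of *Igf2bp2*, *Igf2r* and *Gpc3*. It was found in 12.4% of all promoters. RefSeq starts *Afp* upstream of Gencode, whose gene begins at position 90490737. A match of letters is a description and not a measured binding site.

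Within groups, *Meg3* moved with its neighbours. *Rian* and *Mirg* are maternally transcribed non-coding RNAs downstream of *Meg3* in the same domain. After removal of group means over 28 libraries, *Meg3* and *Rian* had a Pearson r of 0.83 and a Spearman rho of 0.86 (two-sided permutation within groups, p = 1e-05 for each, the smallest that 100000 resamples can give, adjusted p = 5e-05). *Rian* ranked first among 14050 genes for likeness to *Meg3*. *Meg3* and *Mirg* had r = 0.77 and rho = 0.78 (permutation p = 2e-05 and 3e-05, adjusted p = 5e-05 and 7.5e-05), although *Mirg* counts were only 0 to 35 per library. Without the 2 libraries farthest from the median of *Meg3* the r values were 0.81 and 0.80. These were 2 of 5 pairs of domain neighbours, added after the data were examined.

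**Figure D4:**
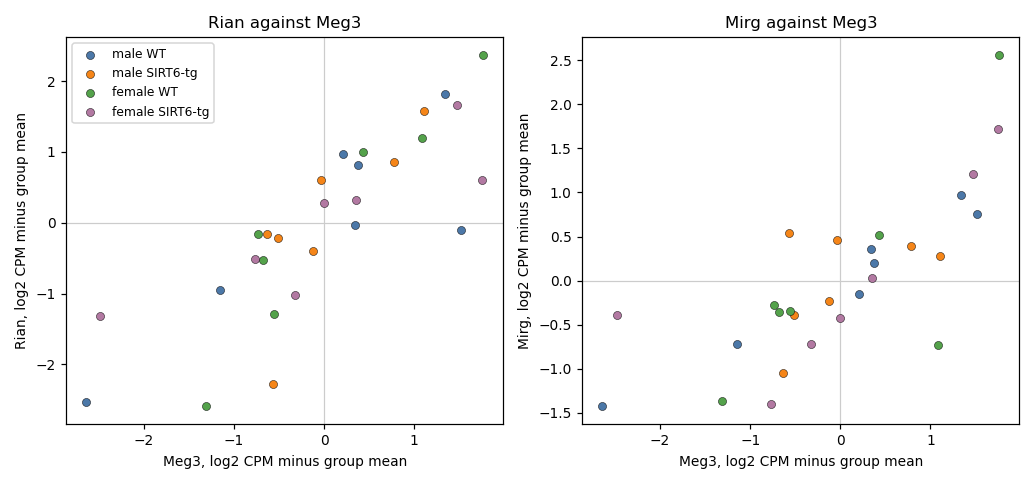
Log2 CPM of Rian (left) and Mirg (right) against Meg3, each minus the mean of its group, with 1 point per mouse coloured by group. Mice with more Meg3 than their group mean also had more Rian (r = 0.83) and more Mirg (r = 0.77).

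*Rian* had lower means in SIRT6-tg than in WT livers of both sexes, as *Meg3* did. They were 116 ± 94.6 in male WT, 36.8 ± 27.3 in male SIRT6-tg, 127 ± 135 in female WT and 60.8 ± 47.4 in female SIRT6-tg livers. The female medians were close, at 67.1 and 59.0 (log2 ratio -0.18), and 491 of the 942 female WT reads came from replicate 3. Since *Rian* moved with *Meg3* within groups, it is no separate observation of the genotype difference. The log2 fold change of *Rian* was -1.62 ± 0.68 in males (adjusted p = 0.0938) and -1.06 ± 0.65 in females (edgeR adjusted p = 1.00), neither past the threshold. *Mirg*, with few reads, had smaller log2 fold changes, of -0.34 ± 0.73 in males and -0.41 ± 0.71 in females. The paternally transcribed genes of the domain were near the floor, with 0 to 10 reads per library for *Dlk1* and 0 to 4 for *Rtl1*.

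The other pairs concerned *Igf2r* and *Cdkn1c*. *Igf2r* and *Airn*, the paternal non-coding transcript that starts inside *Igf2r* on the opposite strand, had r = 0.57 and rho = 0.67 (permutation p = 0.00453 and 7.9e-04, adjusted p = 0.00755 and 0.00132) and r = 0.59 without the 2 farthest libraries. *Airn* shares no exonic base with *Igf2r*, but whether the counting used strand is not given in the sources used here, so reads of unspliced *Igf2r* RNA in *Airn* exons cannot be told apart from *Airn*. *Airn* ranked only 3516th among the genes most like *Igf2r*. *Cdkn1c* and *Kcnq1ot1*, the long antisense transcript of its domain, had r = 0.48 (permutation p = 0.012, adjusted p = 0.015, 0.59 without the 2 farthest libraries) but rho = 0.28 (permutation p = 0.151, adjusted p = 0.189). *Cdkn1c* and *Phlda2* did not pass (r = 0.20, rho = 0.24, permutation p = 0.308 and 0.228, adjusted p = 0.308 and 0.228).

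*H19* itself was tested against the other 7 members in the same way, and 0 of the 7 relations passed, with 1 of 7 at an unadjusted permutation p under 0.05 for r and 0 of 7 for rho. *H19* averaged over 10 normalized counts only in female WT livers, so these relations rest on few reads. The lowest p for r was that of *Gpc3*, with r = 0.45 and rho = 0.36 (permutation p = 0.0377 and 0.081, adjusted p = 0.207 and 0.283, r = 0.33 without the 2 libraries farthest from the median of *H19*). *Igf2*, under the same control region, had r = 0.22 and the lowest p for rho, with rho = 0.38 (permutation p = 0.360 and 0.0538, adjusted p = 0.505 and 0.283, r = 0.41 without the 2 farthest libraries). Ranked by Pearson r over the 28 group-centred libraries, genes most like *H19* among 14050 included *Fxyd6* (0.78), *Gm12781* (0.72), *Ambp* (0.69) and *Fbln2* (0.69). Without the 2 libraries farthest from the median of *H19*, these values were 0.69, 0.55, 0.44 and 0.59. No p-value is given for genes ranked over the whole table.

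The dose of the transgene varied between SIRT6-tg mice, from 5263 to 9517 normalized *Sirt6* counts in males and from 434 to 1335 in females. Relations of the 8 members with *Sirt6* were tested inside each SIRT6-tg group, 16 in all, by exact two-sided permutation of all orders of the 7 mice. None passed after adjustment, with 1 of 16 at an unadjusted p under 0.05 for r and 2 of 16 for rho. *Igf2r* in females came closest, with r = -0.89 and rho = -0.89 (exact permutation p = 0.00933 and 0.0123, adjusted p = 0.149 and 0.197) and r = -0.98 without the 2 mice farthest from the median of *Sirt6*. *H19* in males had r = -0.62 and rho = -0.75 (exact permutation p = 0.128 and 0.0663, adjusted p = 0.411 and 0.353), over libraries that were all at or under its floor.

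Related genes from 4 lists, with the members left out, were compared between the genotypes in the same fit. The lists were chosen with earlier results of these data known, so their calls and adjusted p-values are given as descriptions. Of 126 genes 111 were tested, and in males 8 were higher and 12 lower in SIRT6-tg livers, where 9.68% of all genes were higher and 11.0% lower. In females 0 of 111 passed (edgeR), 6 had an unadjusted p-value under 0.05, and DESeq2 called 1, *Igf1*. Of the imprinted genes, 42 of 52 were tested, and 3 were higher and 5 lower in male SIRT6-tg livers, with a median log2 fold change of -0.02. *Asb4*, maternally transcribed, was lower by -1.28 ± 0.36 (adjusted p = 0.00970). *Zrsr1*, paternally transcribed, was higher by 0.37 ± 0.11 (adjusted p = 0.0140) and *Ppp1r9a* by 0.56 ± 0.17 (adjusted p = 0.0204). *Airn* and *Phlda2* were also lower, by -1.15 ± 0.37 (adjusted p = 0.0230) and -1.48 ± 0.50 (adjusted p = 0.0320). For *Airn*, reads of unspliced *Igf2r* RNA again cannot be told apart from its own.

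Of the ligands, receptors and binding proteins of the IGF system, 16 of 19 were tested and 2 were higher, 0 lower, in male SIRT6-tg livers. *Igf1*, the circulating growth factor made by hepatocytes, was higher by 0.33 ± 0.09 (adjusted p = 0.00849), and *Igfals*, which holds IGFs in a ternary complex in blood, by 0.58 ± 0.13 (adjusted p = 0.00217). Neither gene's male ranges overlapped. The list's median was -0.19, opposite in sign to these 2 genes. In females their log2 fold changes were 0.35 ± 0.09 and 0.51 ± 0.13 (edgeR adjusted p = 0.246 and 0.278). These are RNA levels in liver and give no level of the proteins in blood. The study reported lower serum IGF-1 in SIRT6-tg mice of both sexes, measured after an overnight fast. The livers came from mice fasted for a shorter time, by day.

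Among other fetal liver and oncofetal genes, 26 of 30 were tested, and 0 were higher and 6 lower in male SIRT6-tg livers, with a median of -0.46 against 0.06 over all genes. *Scd2*, a fatty acid desaturase, was lower by -1.17 ± 0.15 (adjusted p = 7.15e-07), *Lpl*, lipoprotein lipase, by -1.34 ± 0.26 (adjusted p = 3.45e-04) and *Golm1*, a Golgi membrane protein, by -0.74 ± 0.19 (adjusted p = 0.00513). In females the median was -0.19. Of 30 regulators of imprints, of *Afp* and of *H19*, all were tested, and 3 were higher and 1 lower in male SIRT6-tg livers. *Cebpa* and *Foxa2*, transcription factors of the hepatocyte, were higher by 0.47 ± 0.09 (adjusted p = 1.34e-04) and 0.63 ± 0.18 (adjusted p = 0.00920). *Uhrf1*, which brings the maintenance DNA methyltransferase to replicated DNA, was lower by -2.05 ± 0.28 (adjusted p = 3.02e-06), from 39.2 ± 17.1 to 9.58 ± 3.49 normalized counts. In the same comparison 4 of 4 proliferation markers were lower, and their part in the *Uhrf1* value was not tested. The split into higher and lower depended on the scaling: with library size alone 0 were higher and 31 lower, and with upper-quartile factors 3 were higher and 16 lower. The median of all male genes was then -0.22 and -0.02, against 0.06 with TMM.

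**Figure D5:**
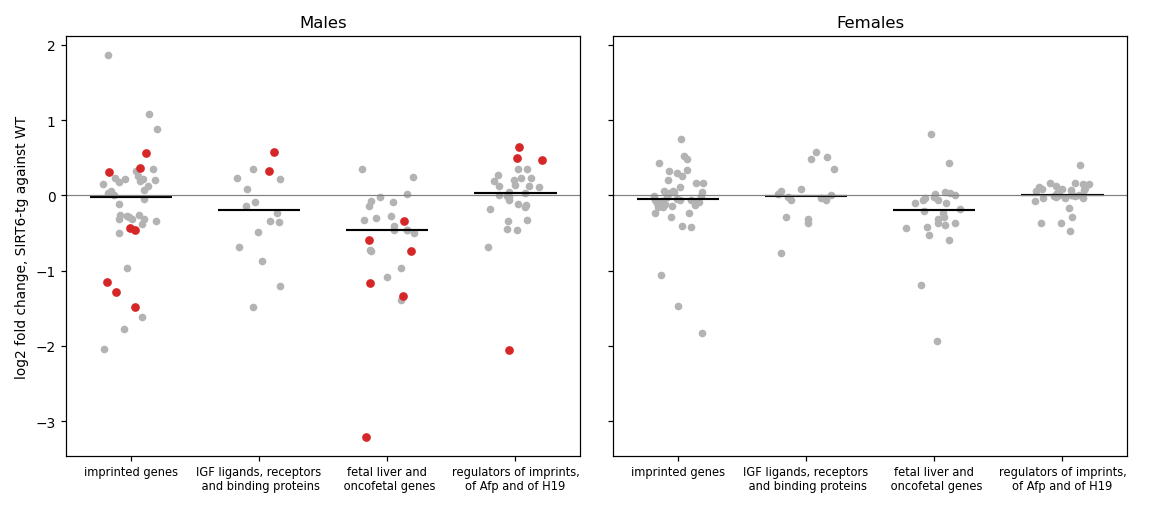
Log2 fold changes (vertical axis, SIRT6-tg against WT) of the genes in 4 related lists, in males on the left and females on the right, with 1 point per gene, red below an adjusted p-value of 0.05, and the list median as a bar. In males 20 of 111 genes are red, 6 of them below 0 among the fetal liver and oncofetal genes, and in females none are.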

How the data were processed

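RNA of 28 livers was sequenced as single-end NEBNext Ultra libraries. The authors aligned reads to mm10 with STAR 2.5.0a, used HTSeq-count on unique alignments and deposited raw counts per Gencode gene, 1 column per library. The strand setting and the driver of the transgene are not given in the sources used here, so overlapping antisense genes are uncertain. Replicates were separate mice. No pair of libraries within a group agreed within sampling noise.

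Symbols and coordinates came from Gencode vM21 (GRCm38), which named 49326 of 49585 features. The 8 members and all lists were chosen with earlier results of these data known. Counts were normalized by TMM and fitted in edgeR 4.0.16 (R 4.3.3, quasi-likelihood, robust) with all 4 groups in 1 model and no covariates, keeping genes that averaged 0.5 or more normalized counts. P-values were adjusted by Benjamini-Hochberg over 21583 genes at 0.05. SEs came from the log2 fold change and its F. Correlations used log2 CPM (prior count 2). Rankings over all genes kept those with a mean of 10 or more, which domain neighbours did not have to reach. Ratios of summed counts have exact 95% intervals. A count of 0 allows up to 3 counts. Intervals and floors cover counting error only.

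Named genes were the members, *Sirt6*, domain neighbours, repressors of *Afp*, the 5 genes most like *H19* (1 of them is not reported here), and in each list and sex at most the 3 lowest adjusted p-values under 0.05. *Airn* and *Phlda2* were named as neighbours. Marker lists were summed per library. Alternatives were RLE, upper-quartile and no scaling factors, filterByExpr, no filter, DESeq2 1.42.0, a replicate block, only the 2 groups compared, a prior count of 0.5 and each library left out. Scripts were tested on simulated data.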

Additional observations from a re-analysis of the deposited data

Results flagged for a closer look

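The *Cdkn1c* level of 1 female WT mouse, replicate 3, lay apart from the other 6 of its group. It had 64.9 normalized counts and the next lowest mouse 97.7, a gap of 0.587 of the whole range of the group, which exceeds Dixon's limit for 7 values. With 32 groups examined (8 genes in 4 groups), 1.6 such flags are due by chance and 1 was found.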

How the results depend on the processing

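The count of members past the threshold in males (1, *Meg3*) was 0 without a filter and with the replicate block, and 2 (*H19* and *Meg3*) with DESeq2 and with only the 2 groups compared. Leaving out 1 library gave 0 to 1, and 0 came without male WT replicate 2, 3, 4, 5 or 6 or male SIRT6-tg replicate 1, 3, 5, 6 or 7. The corresponding ranges were 0 to 0 in females, 2 to 3 for sex in WT, 3 to 4 for sex in SIRT6-tg mice, 16 to 22 for related genes in males and 0 to 0 for them in females. Related genes called were 31 in males with library size alone and 1 in females with DESeq2, and library size alone let 1 relation with *Sirt6* pass. The *H19* sex call in WT mice was also lost with library size alone (adjusted p = 0.0523), no filter (0.0854), the replicate block (0.128), only the 2 groups compared (0.173) and without male WT replicate 1, 3, 4, 5, 6 or 7 (0.061 to 0.101), and the sex value of *H19* in SIRT6-tg mice passed with only the 2 groups compared (0.0454). Under filterByExpr *H19* was not tested. The near-zero sex difference of *Igf2r* in SIRT6-tg mice (0.004) was -0.0210 with RLE, -0.0211 with DESeq2, -0.0700 with upper-quartile factors, -0.0908 with library size alone and -0.00260 with only the 2 groups compared, and -0.0831 to 0.0918 with 1 library left out. The sex difference in WT mice was -0.275 to 0.434 for *Gpc3* and -0.0450 to 0.696 for *Meg3* with 1 library left out, against 0.08 and 0.24 with all, and 0.62 and -0.06 without female WT replicates 1 and 2. In each case the cause was not tested.

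The replicate numbers are shared between groups, but same-numbered mice did not deviate together (correlations of -0.345 to 0.328 over 42 pairs, of which 12 were above 0.1, and in 4 of the 42 the best match was the own number), so the block was not used elsewhere. Depth limits *H19*, *Mirg*, *Dlk1* and *Rtl1*, whose counts were near the floor of 3 in many or all libraries, and *Igf2*, with as few as 7 counts. Groups of 7 mice came from a single transgenic line, and what a second line would give is not known from these data.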
